A study of Macaca mulatta with 5 samples.

Results

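Mural cells and fibroblasts of the rhesus macaque claustrum, the grey matter sheet that lies under the insula, were picked out of single-nucleus RNA libraries with a gate on raw counts of unique molecular identifiers (UMIs). A nucleus passed with 1000 to 10000 UMIs in all, at least 4 UMIs of PDGFRB, NOTCH3, COL1A2 and DCN together, fewer UMIs of the endothelial genes FLT1, CLDN5, VWF, ABCB1 and PECAM1 than of these, 0 UMIs of SLC17A7, GAD1 and GAD2 and fewer than 10 UMIs of PDGFRA, VCAN and CSPG4. The gate found 72 of 40005 nucleus barcodes. In 44 of them PDGFRB and NOTCH3 outnumbered COL1A2 and DCN (the mural side), in 21 the reverse held (the fibroblast side), and in 7 the sums were equal, so that these entered neither side. Endothelial nuclei, 504 in number, were taken with the mirrored gate and served as the comparison from the same libraries. The tissue came frozen from an 18-month-old and a 17-month-old healthy male Macaca mulatta, both untreated, and was profiled with the 10x 3' V3 kit. The older animal gave 3 libraries and the younger 2. Libraries of 1 animal are repeats on that animal, so p-values measure the spread between libraries, which may be technical, and age and animal cannot be told apart.

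Pericytes wrap capillaries and smooth muscle cells wrap arterioles, and together they are called mural cells. They are held in place by PDGF-B from the endothelium acting on PDGFRB, need NOTCH3 signalling, and set vessel calibre through calcium channels, potassium channels and cyclic nucleotides. Fibroblasts of the brain lie in the meninges and around larger vessels, where they lay down collagens, laminins and small proteoglycans such as decorin (DCN).

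Barcodes numbered 8000, 9540 and 6659 (18-month libraries 1 to 3), then 7969 and 7837 (17-month libraries 1 and 2), with 47512670 to 70896967 UMIs per library and a median of 2976 to 3485 UMIs per barcode. Of these barcodes, 5144, 6588 and 4153 (18-month) with 6089 and 6017 (17-month) lay in the gate's range of total UMIs. Pairs of libraries shared 11 to 39 barcode sequences, and 0 barcodes repeated among the 72 members. Mural nuclei had a median of 2795 UMIs (1320 to 6608), fibroblast nuclei 2916 (2054 to 6307), nuclei with equal sums 2034 (1551 to 3769) and endothelial nuclei 2999.5.

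The members were chosen by the UMIs of the gate genes, whose values are given as a description. PDGFRB, the PDGF receptor, had 131 UMIs in 39 of 44 mural nuclei and 17 UMIs in 9 of 21 fibroblast nuclei, and NOTCH3 had 63 UMIs in 29 mural nuclei and 9 UMIs in 6 fibroblast nuclei. COL1A2, a chain of type I collagen, had 7 UMIs in 5 mural nuclei and 50 UMIs in 18 fibroblast nuclei. DCN had 42 UMIs in 26 mural nuclei and 92 UMIs in 19 fibroblast nuclei. MYH11, the smooth muscle myosin heavy chain that was given as a marker but not used by the gate, had 15 UMIs in 5 mural nuclei and 18 UMIs in 2 fibroblast nuclei, 14 of the 18 in a single nucleus of 18-month library 1. The label's MYH11 therefore marked few nuclei on either side. Near the threshold, 23 members had exactly 4 UMIs of the 4 choosing genes, 38 nuclei with 3 UMIs lay just outside, and 53 were left out because their endothelial sum was as high. No doublet caller was run.

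Markers of other cells set some mural nuclei apart. Of the 44, 8 carried 28 to 158 UMIs of the astrocyte markers AQP4, SLC1A2, SLC1A3, GFAP and ALDH1L1, came from all 5 libraries, and had 3 or 4 UMIs of PDGFRB, 0 LAMA2 UMIs and 0 to 3 UMIs of DLC1, a GTPase-activating protein listed among pericyte genes. The other 36 had at most 17 astrocyte UMIs and a median of 20.5 DLC1 UMIs (1 to 39). PDGFRB was also measurable in astrocyte-marker nuclei at large: 1315 nuclei with more than 10 UMIs of these markers, and fewer of each other class, had 107 to 153 PDGFRB CPM (UMIs divided by the summed UMIs, times 1e6) by library, against 4.96 to 14.5 CPM in the other nuclei, while 9 of them had at least 4 PDGFRB UMIs and 9 were in the gate. For these 8 nuclei the data went against the label, so they are called by their counts and given no cell type. Over the whole list, astrocyte markers summed to 1677 to 11123 CPM in the mural sums of the 5 libraries, 414 to 1844 CPM in the fibroblast sums and 413 to 1370 CPM in the endothelial sums. Endothelial markers, 9 in all, summed to 65.9 to 395 CPM on the mural side and 169 to 256 CPM on the fibroblast side, against 5220.0 to 5963 CPM in endothelial nuclei. The macrophage markers CD163, MRC1, F13A1, LYVE1 and MS4A7 summed to 4 UMIs over the mural side, 3 UMIs over the fibroblast side and 390 UMIs over the endothelial nuclei. The microglial markers CSF1R, P2RY12, CX3CR1, APBB1IP and DOCK8 summed to 607 to 2001 CPM in the endothelial sums. They summed to 0 to 353 CPM on the mural side and 0 to 166 CPM on the fibroblast side.

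A screen removed nuclei with more than 10 UMIs of the astrocyte, oligodendrocyte, microglial, macrophage, excitatory or inhibitory neuron markers. It removed 10 of 44 mural nuclei (9 of them by astrocyte markers and 1 by oligodendrocyte markers), 1 of 21 fibroblast nuclei (by 90 UMIs of 1 inhibitory neuron marker), 0 of the 7 with equal sums and 161 of 504 endothelial nuclei. In the fibroblast sum that held this nucleus (18-month library 2), 4 of the 5 inhibitory neuron markers had 0 UMIs. For GAD1 and GAD2 the gate itself required this. Fold changes are given first for all gated nuclei and then for this screened set, which also took sums of at least 2 nuclei in place of 5 and so differs from all nuclei in both choices.

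**Figure D1:**
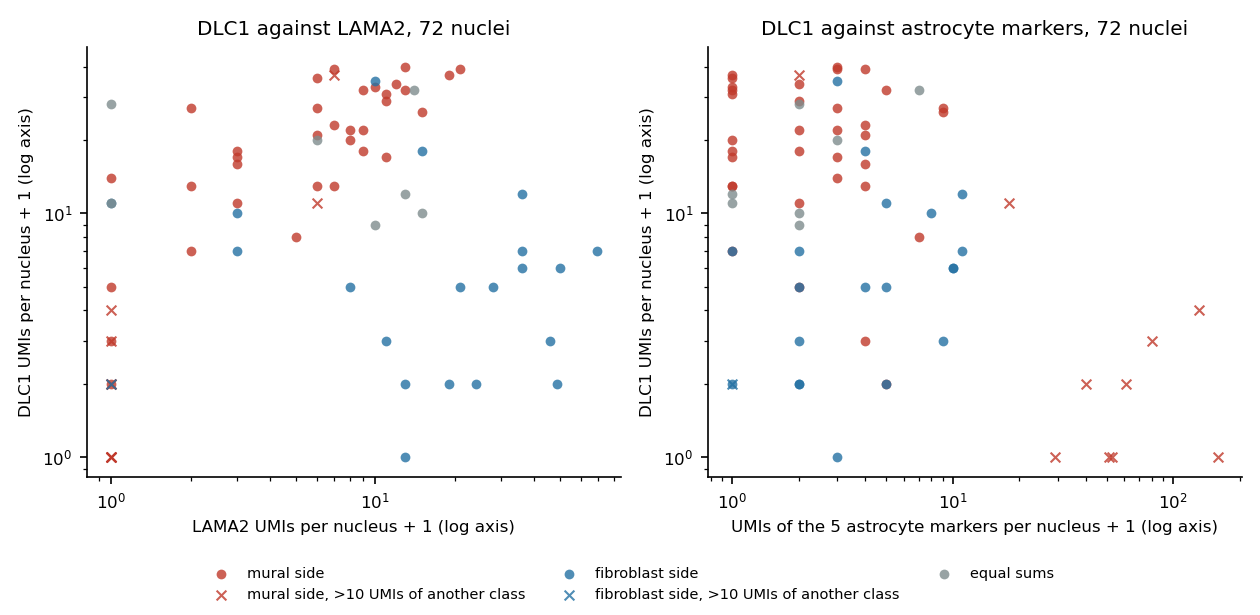
UMIs (plus 1, log axes) of DLC1 against LAMA2 on the left and of DLC1 against the 5 astrocyte markers together on the right in each of the 72 gated nuclei, coloured by side, with crosses for nuclei that held more than 10 UMIs of another cell class. The 8 mural nuclei with at least 28 astrocyte UMIs lie at 0 to 3 DLC1 UMIs, and most fibroblast nuclei lie low in DLC1 and high in LAMA2.

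Nuclei that passed the gate were few in every library, and their share is not a measure of how many such cells the tissue held. The gated share of barcodes in the gate's UMI range was 0.175%, 0.243% and 0.169% (18-month libraries) with 0.443% and 0.216% (17-month libraries). The mural share was 0.117%, 0.0911% and 0.0963% (18-month) with 0.296% and 0.166% (17-month), so that both 17-month values lay above all 18-month values (0.101 ± 0.0135%, n = 3, against 0.231 ± 0.0915%, n = 2, SD). The fibroblast share was 0.0583%, 0.106% and 0.0482% (18-month) with 0.115% and 0.0332% (17-month), and the groups overlapped (0.0709 ± 0.0310% against 0.0741 ± 0.0578%). Endothelial shares followed the mural order at a higher level, at 1.44%, 0.896% and 1.35% (18-month) with 3.47% and 1.73% (17-month). With 3 libraries against 2 an exact two-sided permutation test cannot give a p below 0.1, so the animals were not tested. Per gated nucleus there were 8.22, 3.69 and 8 endothelial nuclei (18-month) with 7.81 and 8 (17-month), lowest in 18-month library 2. That library held 6 mural and 7 fibroblast nuclei, while mural nuclei outnumbered fibroblast nuclei in the other 4.

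On screened nuclei, set against the same barcodes, the mural share was 0.0778%, 0.0455% and 0.0722% (18-month) with 0.263% and 0.133% (17-month), so 18-month library 2 was left with 3 of its 6 mural nuclei and both 17-month values again lay above all 18-month values (0.0652 ± 0.0172%, n = 3, against 0.198 ± 0.0918%, n = 2, SD). The fibroblast share changed in 18-month library 2 alone, to 0.0911%, and that library then held 3 mural and 6 fibroblast nuclei. Per screened gated nucleus there were 7.71, 3.42 and 5.67 screened endothelial nuclei (18-month) with 6.28 and 5.18 (17-month), so the other 4 libraries spread more widely than on all nuclei.

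**Figure D2:**
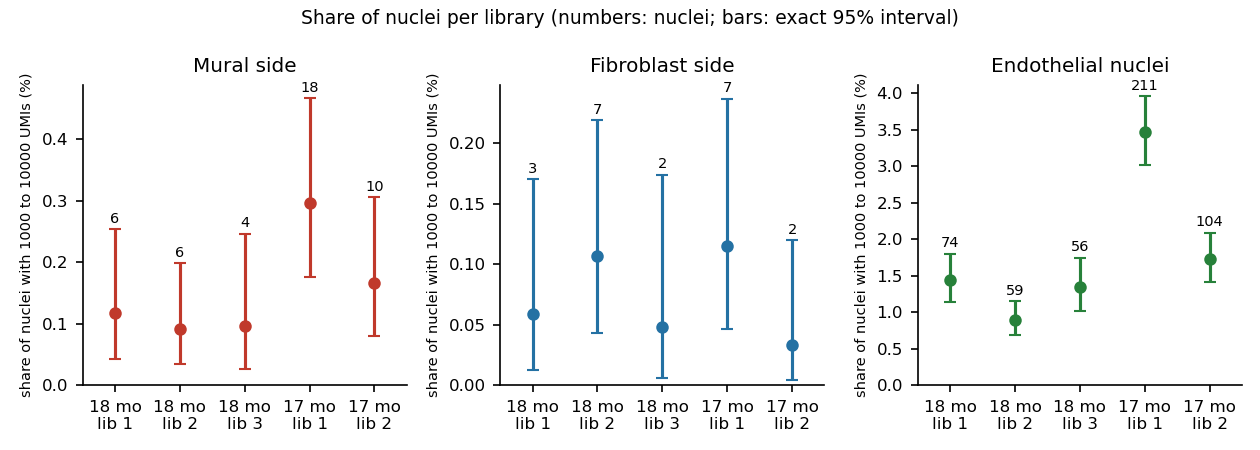
Share of barcodes with 1000 to 10000 UMIs (percent) that were mural, fibroblast or endothelial nuclei, by library, with exact (Clopper-Pearson) 95% intervals that cover counting error only and the number of nuclei above each bar. Mural shares reach 0.296% and fibroblast shares 0.115%, both in 17-month library 1, and the endothelial panel has its own scale up to 3.47%.

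Set against fibroblast nuclei, mural nuclei were higher in pericyte genes and in the endothelin receptor EDNRA, and lower in the hyaluronan-degrading protein CEMIP, the laminin chain LAMA2 and a group of fibroblast genes. UMIs were summed per library and side, and edgeR's quasi-likelihood test with the library as a block counted as called a gene with a log2 fold change of at least 1 in size and p under 0.05 after Benjamini-Hochberg adjustment. Sums of at least 5 nuclei entered, which left 4 mural libraries (18-month library 3 had 4 nuclei) and 2 fibroblast libraries (18-month library 2 and 17-month library 1), beside 5 endothelial libraries in the same fit. Of 6305 genes tested, 40 were higher and 38 lower in mural nuclei (0.634% and 0.603%, in all 1.24%). DESeq2 called 6 higher and 16 lower, edgeR without the library block 12 higher and 30 lower, and edgeR scaled to total UMIs 30 higher and 41 lower. In the screened set, with sums of at least 2 nuclei and therefore 5 libraries on each side, 42 were higher and 42 lower among 2380 tested (1.76% each, in all 3.53%). The sets of calls shared 27 genes in the same direction, which is 34.6% of the first and 32.1% of the second. Leaving out 18-month library 2, 1 of the 2 fibroblast sums, left 10 calls, and leaving out 17-month library 1 left 28. In both cases the lone fibroblast sum is assumed to vary like the other groups. The screened set had 49 calls without 18-month library 1 and 44 without 18-month library 2.

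Of the 10 pericyte genes tested, 5 were higher in mural nuclei and 0 lower. The list's median log2 fold change was 2.17 (2.06 with genes at 0 UMIs in a group set to their bound), beside 0.09 (-0.01 so bounded) over all genes. Genes entered the test only with enough UMIs in some sums, so the members tested are not all members of a list. DLC1 had 5376, 4139 and 4746 CPM (18-month libraries) with 6479 and 6759 CPM (17-month libraries) in mural nuclei. In fibroblast nuclei it had 1331, 704 and 5918 CPM (18-month libraries) with 2505 and 1024 CPM (17-month libraries). DLC1 was called higher in mural nuclei (log2 fold change 1.98 ± 0.47 (SE), adjusted p = 0.00451). Only 18-month library 3, whose fibroblast sum was 2 nuclei and was not tested, put fibroblast above mural. Of these 2 nuclei, 1 had 34 DLC1 UMIs and the other had 1. GRM8, a metabotropic glutamate receptor, had 2959, 1914 and 2046 CPM (18-month libraries) with 2429 and 1286 CPM (17-month libraries) in mural nuclei. Fibroblast nuclei held 704, 124 and 845 CPM (18-month libraries) with 709 and 0 CPM (17-month libraries). The groups did not overlap (log2 fold change 2.55 ± 0.54 (SE), adjusted p = 0.00132, and 2.72 ± 0.46 with adjusted p = 1.14e-06 in the screened set).

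The other pericyte genes called were ABCC9, PLXDC1 and RGS5. ABCC9, the sulfonylurea receptor subunit of vascular potassium channels, had 58 UMIs in the mural sums and 3 in the fibroblast sums, a ratio of CPM of 7.42 (95% counting interval 2.42 to 37.0), with adjusted p = 0.0196. Its partner KCNJ8, the pore subunit, was too sparse for the test. It had 12 UMIs in 11 of 44 mural nuclei and 1 UMI in the 21 fibroblast nuclei. PLXDC1, a membrane protein, averaged 658 ± 141 CPM in mural and 139 ± 138 CPM in fibroblast libraries (SD, n = 4 and 2; log2 fold change 2.48 ± 0.67 (SE), adjusted p = 0.0249). RGS5, which shortens G-protein signalling, averaged 853 ± 113 CPM in mural and 213 ± 301 CPM in fibroblast libraries (log2 fold change 2.19 ± 0.63 (SE), adjusted p = 0.0474). In the screened set 6 of 8 pericyte genes tested were higher, the betaine and GABA transporter SLC6A12 now among them at 1.84 ± 0.47 (adjusted p = 0.00530). On all nuclei SLC6A12 was at 0.89 ± 0.53 (adjusted p = 0.622).

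Among genes that set vessel tone, EDNRA had 31 UMIs in the mural sums and 0 in the fibroblast sums, at least 3.96-fold higher against a floor of 3 UMIs over the group (adjusted p = 0.0474). It was the single call among 14 vasoactive genes tested (median 0.63). The phosphodiesterase PDE3A was called beside it in the screened set at 1.79 ± 0.50 (adjusted p = 0.0147), with 2 of 10 called. Of 13 ion channel and transporter genes ABCC9 alone was called on all nuclei (median 0.89 (0.81 with genes at 0 UMIs in a group set to their bound)). Of 10 tested in the screened set 4 were higher, SLC6A12 among them, as was CACNA1C, the pore of the L-type calcium channel (1.46 ± 0.44, adjusted p = 0.0253). On all nuclei CACNA1C stood at 0.46 ± 0.50 (adjusted p = 0.887), with 1479.5, 828 and 982 CPM (18-month libraries) with 1142 and 1681 CPM (17-month libraries) in mural nuclei. Fibroblast nuclei had 391, 994 and 676 CPM (18-month libraries) with 851 and 639.9 CPM (17-month libraries), and the ranges overlapped.

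Contractile genes gave 1 higher call among 10 tested, the actin-binding protein caldesmon (CALD1, log2 fold change 2.01 ± 0.53 (SE), adjusted p = 0.0181), with a list median of 1.41 (0.85 with genes at 0 UMIs in a group set to their bound). CALD1 lost its call in the screened set (1.09 ± 0.41, adjusted p = 0.150), where 41 of the 89 fibroblast UMIs came from 1 nucleus. With the screen alone it was called, at 2.87 (adjusted p = 0.000434). With sums of at least 2 nuclei and no screen it was not, at 0.80 (adjusted p = 0.298). In the screened set the neurotrophin receptor NTRK3 was called lower in mural nuclei (-2.49 ± 0.70, adjusted p = 0.0166), 1 of 8 tested, against a list median of 0.96.

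The fibroblast side was set apart most by CEMIP. It had 1 UMI in all on the mural side, in 17-month library 1, where it came to 20.8 CPM. In fibroblast nuclei it had 6809.6, 4017 and 5242 CPM (18-month libraries) with 1324 and 1279.8 CPM (17-month libraries). A UMI of CEMIP was present in 1 of 44 mural nuclei and 15 of 21 fibroblast nuclei, at medians of 2795 and 2916 UMIs in all. The ratio of mural to fibroblast CPM in the sums tested was 0.00307 (95% counting interval 7.71e-05 to 0.0174), with adjusted p = 1.84e-19. Of 19 fibroblast genes tested, 5 were lower in mural nuclei and 0 higher (median -1.68). They were CEMIP, SLC47A1, APOD, BNC2 and ABCA9.

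Among these, APOD, a lipid-binding lipocalin, averaged 40.2 ± 48.8 CPM in mural and 547 ± 105 CPM in fibroblast libraries (log2 fold change -3.43 ± 0.77 (SE), adjusted p = 0.00215). ABCA9, an ABC transporter, averaged 79.1 ± 70.6 and 837 ± 46.6 CPM in the same order (log2 fold change -2.75 ± 0.65 (SE), adjusted p = 0.00456). Both kept their call in the screened set (adjusted p = 0.000942 and 0.00718). SLC47A1, an exporter of organic cations, had 1 UMI in mural and 28 in fibroblast sums (adjusted p = 4.39e-05), but 26 of the fibroblast UMIs lay in 1 nucleus. BNC2, a zinc finger protein, had 4 and 14 UMIs (adjusted p = 0.0158), 13 of the 14 in 1 nucleus, and turned to 0.22 when totals were kept to 5000 UMIs. In the screened set 4 of 11 fibroblast genes were lower, with fibrillin (FBN1, 3 and 23 UMIs, ratio 0.0995 (95% counting interval 0.0191 to 0.329), adjusted p = 0.0133) beside CEMIP, APOD and ABCA9 (median -0.82).

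LAMA2, a laminin chain of basement membranes, had 1282, 1293 and 2373 CPM (18-month libraries) with 1682 and 2209 CPM (17-month libraries) in mural nuclei. Fibroblast nuclei had 11897, 6584 and 5411 CPM (18-month libraries) with 5484 and 1536 CPM (17-month libraries). Mural values lay below the fibroblast ones in 4 libraries and above in 17-month library 2, whose fibroblast sum was 2 nuclei (log2 fold change -1.79 ± 0.43 (SE), adjusted p = 0.00550). LAMA2 was not called in the screened set, at -1.10 ± 0.41 (adjusted p = 0.131). With sums of at least 2 nuclei and no screen it was called at -1.40 (adjusted p = 0.00924), and with the screen and sums of at least 5 nuclei it was not, at -0.59 (adjusted p = 0.997). That last run kept mural sums of 17-month libraries 1 and 2 and fibroblast sums of 17-month library 1 and 18-month library 2. Both sides were thus present in 17-month library 1 alone, so the run cannot tell whether the screen changes LAMA2. Of 17 basement membrane genes tested, 2 were lower, LAMA2 and COL15A1, and 1 was higher, fibronectin (FN1, log2 fold change 2.46 ± 0.71 (SE), adjusted p = 0.0488), with a median of 0.57. COL15A1 had 0 UMIs in mural and 13 in fibroblast sums, at least 11.3-fold lower in mural nuclei (adjusted p = 0.0148). FN1 was the 1 call of 13 in the screened set (log2 fold change 1.73 ± 0.53 (SE), adjusted p = 0.0305).

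Further genes were lower in mural nuclei. BMP6, a bone morphogenetic protein, had 2 UMIs in mural and 38 in fibroblast sums, a ratio of 0.0202 (95% counting interval 0.00236 to 0.0781), with adjusted p = 9.58e-08. TGFBR3, the co-receptor betaglycan, averaged 68.8 ± 54.9 and 426 ± 335 CPM in mural and fibroblast libraries (log2 fold change -2.47 ± 0.71 (SE), adjusted p = 0.0468). Both were called in the screened set too, and they were the 2 of 20 signalling genes called (median 0.41 (-0.04 with genes at 0 UMIs in a group set to their bound)). BICC1, an RNA-binding protein, had 0, 0 and 81.8 CPM (18-month libraries) with 104 and 33.0 CPM (17-month libraries) in mural nuclei. On the fibroblast side it had 2505, 1035 and 507 CPM (18-month libraries) with 615 and 1024 CPM (17-month libraries), above the mural values in each library (log2 fold change -3.84 ± 0.73 (SE), adjusted p = 8.53e-05). SLCO1A2, an organic anion transporter best known from brain endothelium, averaged 31.0 ± 21.7 and 529 ± 481 CPM (log2 fold change -3.60 ± 0.80 (SE), adjusted p = 0.00185), the 1 call among 23 blood-brain barrier and endothelial genes (median 0.08 (-0.16 with genes at 0 UMIs in a group set to their bound)). The Wnt receptor ROR2 had 2 and 17 UMIs (ratio 0.0451 (95% counting interval 0.00506 to 0.190), adjusted p = 0.00428), the protocadherin FAT4 1 and 13 (adjusted p = 0.00134), the adhesion protein CLMP 3 and 25 (adjusted p = 0.00146) and the transcriptional co-activator EYA1 2 and 19 (adjusted p = 0.00708). SYT10, a synaptotagmin, had 0 and 12 UMIs, at least 10.4-fold lower in mural nuclei (adjusted p = 0.0127).

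Some calls on all nuclei moved with the nuclei of other classes. SLC1A2, the astrocyte glutamate transporter and 1 of the 5 astrocyte markers, had 397 UMIs in mural and 8 in fibroblast sums (log2 fold change 4.63 ± 0.61 (SE), adjusted p = 1.2e-10). After the screen 17 UMIs were left on the mural side and 8 on the fibroblast side, too few for the test. ADGRV1 (171 and 2 UMIs before, 9 and 6 after), DTNA (76 and 1, then 5 and 4), AQP4 (36 and 1, then 5 and 2), SLC25A18 (27 and 0, then 1 and 0) and RGS20 (39 and 0, then 0 and 0) did likewise. ADARB2 had 3 UMIs on the mural side and 43 UMIs on the fibroblast side, 42 of the 43 in the screened-out nucleus with UMIs of 1 inhibitory neuron marker. FMNL3, BCAM and CABLES1 had 24 UMIs each in mural and 0 in fibroblast sums, at least 3.07-fold higher (adjusted p = 0.0497, 0.0363 and 0.0167), and none of the 3 was called in the screened set.

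The screened set added calls that the 2 fibroblast sums of all nuclei had not given. CYP1B1, a monooxygenase of vascular and meningeal cells, had 0 UMIs in mural and 25 in fibroblast sums, at least 10.9-fold lower (adjusted p = 0.000887), and the guanine exchange factor FGD6 had 0 and 33, at least 14.4-fold lower (adjusted p = 1.14e-06). COL12A1 (log2 fold change -3.07 ± 0.84 (SE), adjusted p = 0.0114) was the 1 call of 5 interstitial collagens, a list with 0 of 7 called on all nuclei (9 of its 16 members were not tested). The zinc finger protein GLIS3 had 1 and 24 UMIs (ratio 0.0318 (95% counting interval 0.000773 to 0.195), adjusted p = 0.000206), while on all nuclei it had 28 and 5 and stood at 1.20 ± 0.79 (adjusted p = 0.680). Among mural genes the scaffold proteins RFTN1 (log2 fold change 2.70 ± 0.57 (SE), adjusted p = 0.000379) and NHS (59 and 3 UMIs, ratio 15 (95% counting interval 4.89 to 74.8)) were called in both sets, and the cadherin CDH6 (log2 fold change 2.95 ± 0.73 (SE), adjusted p = 0.00358) in the screened set. Solute carriers of brain fibroblasts gave 1 lower call of 6 tested (SLC47A1), mesenchymal transcription factors 1 of 15 (BNC2) and small vessel disease genes 0 of 7, with medians of -1.40, -0.09 and 0.52. These lists gave 0 calls of 1, 7 and 5 in the screened set.

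**Figure D3:**
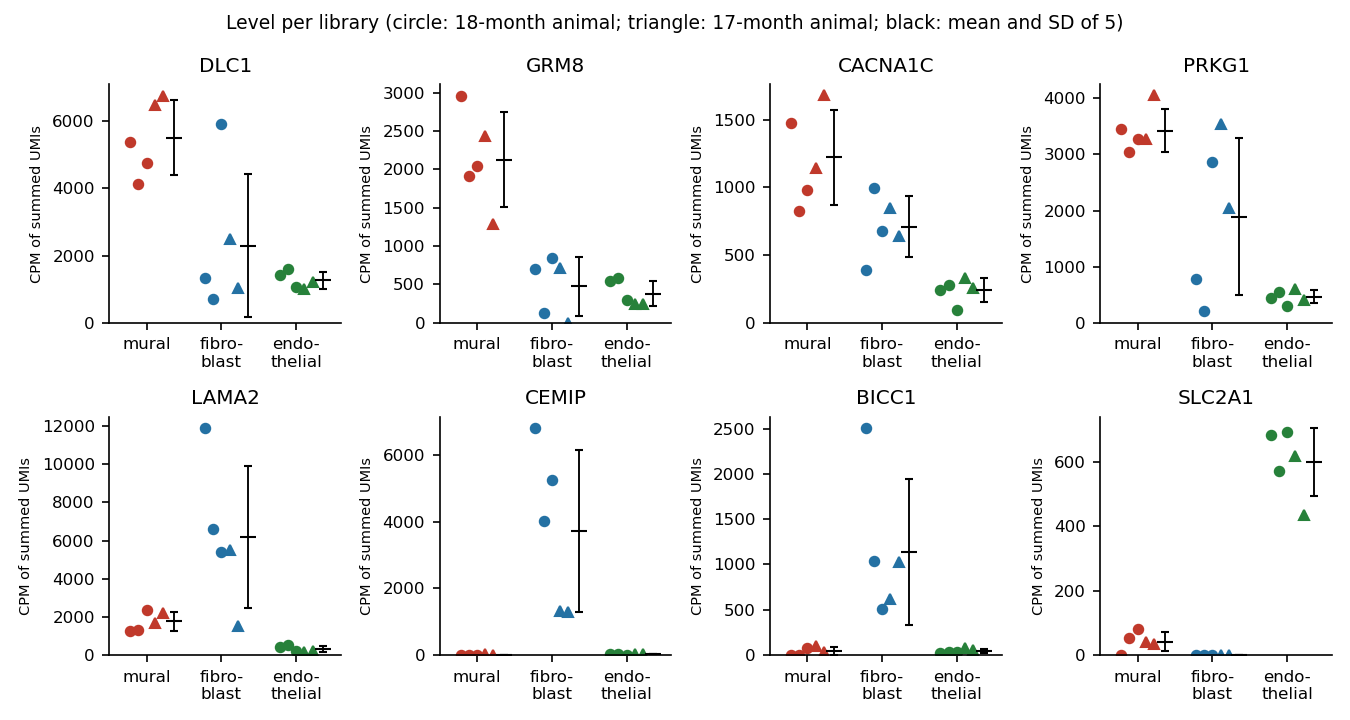
CPM per library of 8 genes in mural, fibroblast and endothelial sums of all nuclei, with circles for the 18-month and triangles for the 17-month libraries and a black mean with SD over 5 libraries. DLC1, GRM8, CACNA1C and PRKG1 lie highest on the mural side in most libraries, CEMIP, BICC1 and LAMA2 on the fibroblast side and SLC2A1 in endothelial nuclei.

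Within the mural side 8 of 44 nuclei had a UMI of ACTA2 (smooth muscle actin), 5 of MYH11 and 16 of TAGLN (transgelin). After each nucleus was thinned to 1000 UMIs, 4 of 44 had at least 2 UMIs of these genes together, and 5 lay 1 UMI below. The 4 nuclei had, before thinning, 25 of 34 ACTA2, 13 of 15 MYH11 and 12 of 30 TAGLN UMIs of the side. They were chosen by these genes, so these counts describe the choice and are not a result. The 4 held 2265 DLC1 CPM, 261 LAMA2 CPM, 87.1 GRM8 CPM and 87.1 ABCC9 CPM, against 6210.1, 1893, 2331 and 530.1 CPM in the other 40. In the 4 these rest on 26, 3, 1 and 1 UMIs out of 11479 UMIs in all, against 118838 UMIs in all in the 40. KCNJ8 was at 0 UMIs in the 4 and at 12 UMIs in the 40, too few to compare at these totals. PRKG1, the cGMP-dependent kinase through which nitric oxide relaxes muscle, differed less, with 4007 CPM in the 4 and 3399.6 CPM in the 40, and the transcription factor EBF1 had 2265 and 1498 CPM. The screen took 10 nuclei from the 40, and the 30 left held 9178 DLC1 CPM, 2867 LAMA2 CPM, 3349.5 GRM8 CPM, 831 ABCC9 CPM, 3577 PRKG1 CPM and 2063 EBF1 CPM, so that EBF1 was then close to its level in the 4. Such a split is a range cut from a sum and not a cell type, and it was not tested. By raw UMIs 8 of 44 nuclei passed, and none of the 4 was removed by the screen.

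Fibroblast nuclei varied as well. Of 21, 13 had 7 to 44 CEMIP UMIs, and these had 7 to 68 LAMA2 UMIs (median 35) and 1 to 11 DLC1 UMIs (median 4). A further 2 had 1 CEMIP UMI and 6 had 0. Of these 2, the nucleus in 17-month library 2 had 7 ACTA2, 4 MYH11 and 8 TAGLN UMIs, beside 5 PDGFRB and 11 DCN UMIs. Over the 21 nuclei ACTA2 had 8 UMIs, MYH11 18 and TAGLN 10, so contractile UMIs were not particular to the mural side. Of the 6 without CEMIP, 4 had 9 to 34 DLC1 UMIs, 0 to 14 LAMA2 UMIs and at least 1 NOTCH3 UMI each, within the range of mural nuclei in these genes. These 4 came from 18-month library 3 and from 17-month library 1, which was 1 of the 2 fibroblast sums tested on all nuclei. Another of the 6, in 17-month library 1, held 26 of the 30 SLC47A1 UMIs and 30 of the 33 SLC4A4 UMIs of the side. The last was the screened-out nucleus with UMIs of 1 inhibitory neuron marker. The 7 nuclei with equal sums had 0 CEMIP and 0 MYH11 UMIs, 8 to 31 DLC1 UMIs (6659 CPM over the 7) and 0 to 14 LAMA2 UMIs (3069 CPM). They had 8 ACTA2 and 8 TAGLN UMIs, and a single nucleus of 18-month library 2 held all 8 of ACTA2 and 6 of TAGLN.

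Set against endothelial nuclei, mural nuclei were higher in genes of ion transport, vessel tone, contraction and pericytes, and lower in the transporters and receptors of the blood-brain barrier. Of 6305 genes tested, 244 were higher and 497 lower (3.87% and 7.88%, in all 11.8%). The screened set gave 193 higher and 361 lower of 2380 (8.11% and 15.2%, in all 23.3%), and 402 calls were shared in the same direction, 54.3% of the first set and 72.6% of the second. Without 17-month library 1 there were 431 calls on all nuclei and without 17-month library 2 there were 436. The median of all genes was -0.21 on the log2 scale with TMM scaling. Scaling to total UMIs moved it to 0.00 and gave 319 higher and 391 lower, so the higher share of the calls was 44.9% with total scaling and 32.9% with TMM.

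Ion channels and transporters were the list with most higher calls, 10 of 13 tested (median 1.83), and 9 of 10 in the screened set. CACNA1C had 1479.5, 828 and 982 CPM (18-month libraries) with 1142 and 1681 CPM (17-month libraries) in mural nuclei. In endothelial nuclei it had 239, 279 and 93.2 CPM (18-month libraries) with 332 and 258 CPM (17-month libraries). Mural values lay above endothelial ones in each library (log2 fold change 1.95 ± 0.35 (SE), adjusted p = 1.4e-06). ABCC9 had 739.8, 310.4 and 491 CPM (18-month libraries) with 581 and 297 CPM (17-month libraries) in mural nuclei. Endothelial nuclei had 116, 144 and 115 CPM (18-month libraries) with 64.7 and 35.7 CPM (17-month libraries), again below in each library (log2 fold change 2.30 ± 0.40 (SE), adjusted p = 5.9e-07). The manganese exporter SLC30A10 (2.37 ± 0.54, adjusted p = 0.000264) and the phosphate transporter SLC20A2 (1.79 ± 0.35, adjusted p = 1.3e-05) were higher on all nuclei and in the screened set. The sodium-calcium exchanger SLC8A1 was the 1 lower call of this list on all nuclei and was not called in the screened set.

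Vasoactive and relaxation genes gave 7 higher calls of 14 and 0 lower (median 0.98), and 7 of 10 in the screened set. PRKG1 had 3452, 3052 and 3273 CPM (18-month libraries) with 3281 and 4055 CPM (17-month libraries) in mural nuclei. It had 443, 545 and 306 CPM (18-month libraries) with 610.2 and 414 CPM (17-month libraries) in endothelial nuclei, a gap wider than the spread of either side (log2 fold change 2.52 ± 0.34 (SE), adjusted p = 6.21e-11). EDNRA averaged 239.7 ± 114 CPM in mural and 36.7 ± 11.7 CPM in endothelial libraries (SD, n = 4 and 5; log2 fold change 2.47 ± 0.51 (SE), adjusted p = 4.55e-05). The phosphodiesterases PDE3A (2.34 ± 0.38, adjusted p = 1.15e-07) and PDE5A (1.76 ± 0.46, adjusted p = 0.00220) were higher in both sets, PDE5A in 3 of 4 libraries. EDNRB, the other endothelin receptor, was called on all nuclei (log2 fold change 2.23 ± 0.69 (SE), adjusted p = 0.0139) with 16 mural UMIs, of which 1 was left after the screen.

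Among pericyte genes 6 of 10 were higher and 0 lower (median 1.73), and 6 of 8 in the screened set. DLC1 had 1416, 1592 and 1056 CPM (18-month libraries) with 1016 and 1210.3 CPM (17-month libraries) in endothelial nuclei, below the mural values given above in each library (log2 fold change 1.81 ± 0.33 (SE), adjusted p = 2.01e-06). GRM8 was at 2.17 ± 0.35 (adjusted p = 4.58e-08) and the T-box factor TBX18 at 2.84 ± 0.91 (adjusted p = 0.0189), TBX18 on 9 mural UMIs. RGS5 was not called: it had 888, 724 and 1473 CPM (18-month libraries) with 809.8 and 989 CPM (17-month libraries) in mural nuclei and 768, 964 and 613 CPM (18-month libraries) with 219 and 231 CPM (17-month libraries) in endothelial nuclei, with the endothelial value above the mural one in 18-month library 2. Contractile genes gave 5 higher calls of 10 and 0 lower (median 1.44), and 6 of 8 in the screened set. The calcium channel subunit CACNB2 (log2 fold change 2.76 ± 0.36 (SE), adjusted p = 6.26e-12), ACTA2 (log2 fold change 2.51 ± 0.55 (SE), adjusted p = 0.000162), CALD1 (log2 fold change 1.74 ± 0.35 (SE), adjusted p = 2.02e-05) and myosin light chain kinase (MYLK, log2 fold change 1.83 ± 0.53 (SE), adjusted p = 0.00809) were among them, ACTA2 in 3 of 4 libraries.

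In the extracellular matrix, 5 of 17 basement membrane genes were higher and 0 lower (median 0.96 (1.05 with genes at 0 UMIs in a group set to their bound)), and the screened set gave 6 higher and 1 lower of 13. LAMA2 had 409, 510.3 and 218 CPM (18-month libraries) with 167 and 231 CPM (17-month libraries) in endothelial nuclei, below the mural values in each library (log2 fold change 2.18 ± 0.36 (SE), adjusted p = 1.11e-07). The laminin chain LAMC3 (2.46 ± 0.54, adjusted p = 0.000163), nidogen (NID1, 2.20 ± 0.41, adjusted p = 3.64e-06) and COL4A3 (2.01 ± 0.45, adjusted p = 0.000196) were higher in 4 of 4 libraries. Of 7 interstitial collagens 3 were higher and 1 lower (median 2.08), with COL3A1 at 2.76 ± 0.69 (adjusted p = 0.00141), COL5A2 at 2.16 ± 0.49 (adjusted p = 0.000232), COL14A1 at 2.08 ± 0.57 (adjusted p = 0.00459) and COL8A1 lower on 2 mural UMIs (ratio 0.111 (95% counting interval 0.0134 to 0.404), adjusted p = 0.00136). In 18-month library 2 COL3A1 had 0 CPM in mural nuclei, below its endothelial value there. The screened set likewise gave 3 higher and 1 lower of 5. Of 19 fibroblast genes 4 were higher and 1 lower (median 0.91 (1.15 with genes at 0 UMIs in a group set to their bound)). RANBP3L (log2 fold change 2.35 ± 0.50 (SE), adjusted p = 0.000100) and COL3A1 were also called in the screened set, while the bicarbonate transporter SLC4A4 had 9 mural UMIs there and 54 before. BNC2 was lower on all nuclei (log2 fold change -3.19 ± 0.63 (SE), adjusted p = 1.82e-05).

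Endothelial genes were lower on the mural side. Of 23 blood-brain barrier and endothelial genes, all tested, 20 were lower and 0 higher (median -4.55 (-3.56 with genes at 0 UMIs in a group set to their bound)), and 15 of 16 in the screened set. The list overlaps with the endothelial gate in cell type but not in genes. The glucose transporter SLC2A1 had 0, 51.7 and 81.8 CPM (18-month libraries) with 41.5 and 33.0 CPM (17-month libraries) in mural nuclei. In endothelial nuclei it had 682, 571 and 692 CPM (18-month libraries) with 619.8 and 434 CPM (17-month libraries). The sialomucin EMCN had 0 UMIs in mural sums and 1877 in endothelial sums, at least 40.2-fold lower (adjusted p = 3.59e-20). The amino acid transporter SLC38A5 was at least 15.8-fold lower (adjusted p = 3.02e-11), the tight junction protein occludin (OCLN) at least 6.40-fold (adjusted p = 7.68e-06), the thiamine transporter SLC19A3 at least 8.37-fold (adjusted p = 3.05e-07) and the receptor TIE1 at least 3.13-fold (adjusted p = 0.00410), each with 0 mural UMIs. The adhesion receptor ADGRL4 had 3 mural and 1647 endothelial UMIs (ratio 0.0284 (95% counting interval 0.00584 to 0.0830), adjusted p = 2.22e-15). PGM5, PAQR5, SLC30A1 and ELOVL7 were also at 0 mural UMIs, at least 10.7-, 6.72-, 5.38- and 5.23-fold lower. FYB1 was too (at least 6.36-fold), though its endothelial UMIs were 55 after the screen and 297 before.

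Of 20 signalling genes tested, 1 was higher and 3 were lower. The ligand ANGPT1, which acts on endothelial TEK, was higher (log2 fold change 2.55 ± 0.57 (SE), adjusted p = 0.000219). The TGF-beta co-receptor ENG was lower (log2 fold change -2.85 ± 0.56 (SE), adjusted p = 1.57e-05), as were BMP6 (2 mural UMIs, ratio 0.117 (95% counting interval 0.0140 to 0.425), adjusted p = 0.00137) and NOTCH4 (0 mural UMIs, at least 2.31-fold lower, adjusted p = 0.0176). The list's median was -0.94 (-0.80 with genes at 0 UMIs in a group set to their bound), and the screened set gave 2 higher and 2 lower of 7. Of 15 mesenchymal transcription factors 3 were higher and 1 lower (median 1.64), with the nuclear receptor NR2F2 at 1.48 ± 0.37 (adjusted p = 0.00127) beside TBX18 and GLI3. Of 7 small vessel disease and brain calcification genes 1 was higher (SLC20A2) and 1 lower, the junction protein JAM2 (log2 fold change -3.32 ± 0.53 (SE), adjusted p = 4.82e-08), with a median of -0.02. Solute carriers of brain fibroblasts gave 1 higher call of 6, SLC4A4, at a median of -0.07.

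Outside the lists, the largest higher fold changes shared by both sets were those of ARHGAP10, a GTPase-activating protein (log2 fold change 2.66 ± 0.39 (SE), adjusted p = 2.74e-09), the cadherins CDH6 (log2 fold change 3.02 ± 0.49 (SE), adjusted p = 7.14e-08) and DCHS2 (log2 fold change 2.75 ± 0.46 (SE), adjusted p = 2.19e-07), and the anthrax toxin receptor ANTXR1 (log2 fold change 2.62 ± 0.50 (SE), adjusted p = 9.81e-06). The calcium-activated chloride channel ANO1, known from smooth muscle and pericytes, had 24 mural and 36 endothelial UMIs (log2 fold change 2.93 ± 0.60 (SE), adjusted p = 3.63e-05). PRDM16 (14 mural UMIs), ACSBG1 (13), STON2 (16) and SLC25A18 (27) were also called higher on all nuclei, with adjusted p = 0.00765, 0.00233, 0.00359 and 9.05e-06. After the screen they had 0, 0, 0 and 1 mural UMIs. These calls moved with the astrocyte-marker nuclei, whose part in other calls was not tested beyond this screen.

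**Figure D4:**
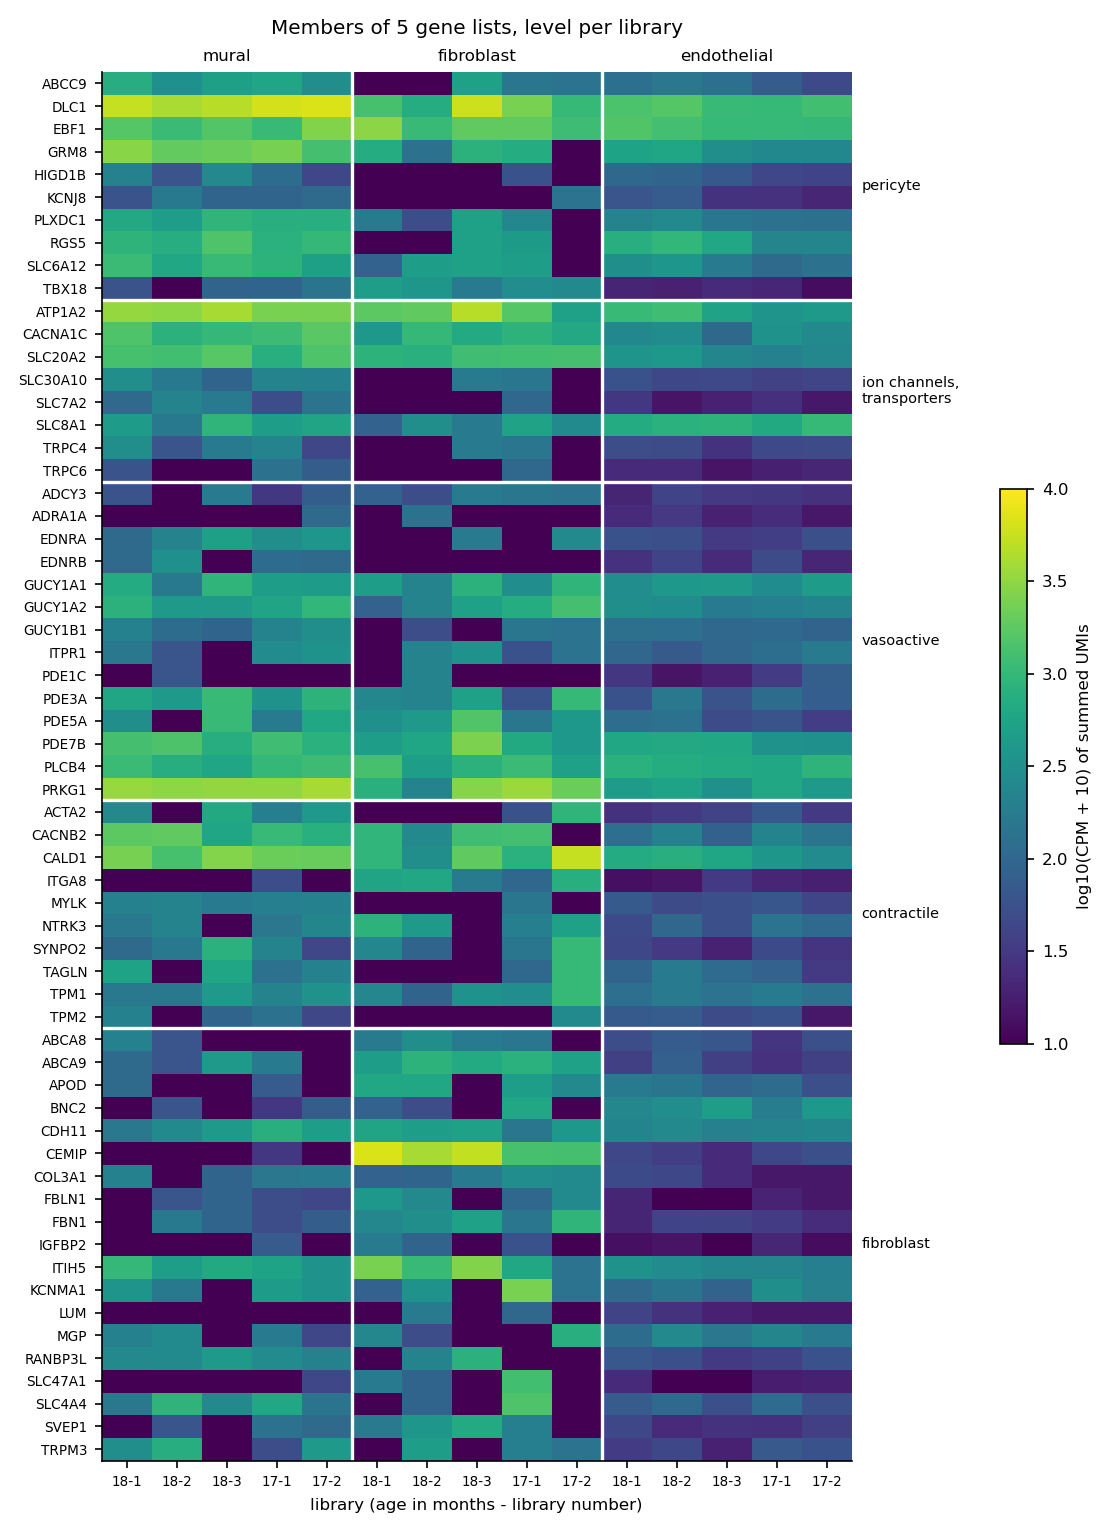
Heat map of log10(CPM + 10) of the tested members of the pericyte, ion channel, vasoactive, contractile and fibroblast lists, each gene shown once and some left out, in mural, fibroblast and endothelial sums of all nuclei by library (18-month libraries 1 to 3, then 17-month libraries 1 and 2). GRM8 is brightest in the mural column of each library, and CEMIP in the fibroblast column.

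Set against endothelial nuclei, fibroblast nuclei were higher in CEMIP, LAMA2, COL12A1 and transcription factors of mesenchyme, and lower in blood-brain barrier genes. On the 2 fibroblast sums 98 genes were higher and 185 lower of 6305 (1.55% and 2.93%, in all 4.49%), and in the screened set with 5 libraries 149 higher and 302 lower of 2380 (6.26% and 12.7%, in all 18.9%). The sets shared 186 calls in the same direction, 65.7% of the first and 41.2% of the second. The median of all genes was -0.32 with TMM and -0.01 with total scaling, which gave 146 higher and 127 lower, 53.5% higher against 34.6% with TMM. Leaving out 17-month library 1 left 59 calls and leaving out 18-month library 2 left 83, with a single fibroblast sum in each case. Both comparisons use the same endothelial libraries, so they are set side by side and not as 2 independent results.

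Of 19 fibroblast genes tested, 10 were higher and 1 lower (median 2.31), and 8 of 11 with 0 lower in the screened set. CEMIP had 34.1, 26.2 and 13.3 CPM (18-month libraries) with 33.1 and 43.9 CPM (17-month libraries) in endothelial nuclei, far below the fibroblast values given above (log2 fold change 5.80 ± 0.55 (SE), adjusted p = 3.06e-22). ABCA9 averaged 837 ± 46.6 CPM in fibroblast and 34.4 ± 22.7 CPM in endothelial libraries (SD, n = 2 and 5; log2 fold change 4.03 ± 0.58 (SE), adjusted p = 8.33e-09). The extracellular glycoproteins SVEP1 (3.61 ± 0.83, adjusted p = 0.00116) and FBLN1 (4.12 ± 1.23, adjusted p = 0.0229) were higher, FBLN1 on 8 fibroblast UMIs. FBN1 missed the threshold on all nuclei (2.57 ± 0.90, adjusted p = 0.0798) and passed it in the screened set (4.52 ± 0.69, adjusted p = 3.91e-09). SLC47A1 (log2 fold change 7.13 ± 1.04 (SE), adjusted p = 8.33e-09) rested on the 1 nucleus named above.

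COL1A1, the other type I collagen chain beside COL1A2, had 7 UMIs over the 21 fibroblast nuclei, 2 over the 44 mural nuclei and 3 over the 504 endothelial nuclei. COL3A1, the type III chain, had 78.3, 82.8 and 169 CPM (18-month libraries) with 284 and 256 CPM (17-month libraries) in fibroblast nuclei, 197, 0 and 81.8 CPM (18-month libraries) with 145 and 165 CPM (17-month libraries) in mural nuclei, and 37.5, 34.9 and 13.3 CPM (18-month libraries) with 5.51 and 5.49 CPM (17-month libraries) in endothelial nuclei. Fibroblast nuclei were above endothelial nuclei in each library (log2 fold change 3.31 ± 0.96 (SE), adjusted p = 0.0183). Mural nuclei were above endothelial nuclei except in 18-month library 2, and the 2 gated sides overlapped each other. COL12A1, a fibril-associated collagen, averaged 423 ± 70.7 and 8.51 ± 2.88 CPM in fibroblast and endothelial libraries (log2 fold change 5.31 ± 0.91 (SE), adjusted p = 1.86e-06). These were the 2 higher calls among 7 interstitial collagens (0 lower, median 1.07), and the screened set gave 4 of 5.

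LAMA2 differed from endothelial nuclei by 3.97 ± 0.44 (adjusted p = 5.44e-16), and COL15A1 by 5.72 ± 1.20 (adjusted p = 0.000233), the 2 higher calls of 17 basement membrane genes. FN1 was the 1 lower call (log2 fold change -2.25 ± 0.70 (SE), adjusted p = 0.0328; list median 1.06). In the screened set 6 were higher and 2 lower of 13, FN1 again lower but in 3 of 5 libraries (log2 fold change -1.35 ± 0.49 (SE), adjusted p = 0.0334). Of 20 signalling genes the ligands PDGFD (log2 fold change 3.82 ± 1.10 (SE), adjusted p = 0.0164) and BMP6 (log2 fold change 2.27 ± 0.53 (SE), adjusted p = 0.00116) were higher and ENG was lower on 3 fibroblast UMIs (ratio 0.192 (95% counting interval 0.0394 to 0.563)), with a list median of -1.14 (-0.15 with genes at 0 UMIs in a group set to their bound). In the screened set 4 of 7 were higher, ANGPT1 among them (log2 fold change 3.36 ± 0.60 (SE), adjusted p = 6.08e-07) with 12 of its 22 fibroblast UMIs in 1 nucleus, and 1 lower.

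Transcription factors of mesenchyme gave 5 higher calls of 15 and 0 lower (median 0.68 (1.14 with genes at 0 UMIs in a group set to their bound)). TBX18 had 15 fibroblast UMIs (log2 fold change 4.91 ± 0.92 (SE), adjusted p = 1.84e-05), ZIC1, a zinc finger factor of the meninges, 15 (log2 fold change 3.78 ± 0.86 (SE), adjusted p = 0.000986), EYA2 10 (log2 fold change 4.19 ± 1.09 (SE), adjusted p = 0.00620), PRRX1 7 (log2 fold change 4.14 ± 1.17 (SE), adjusted p = 0.0147) and FOXP2 18 (log2 fold change 2.77 ± 0.66 (SE), adjusted p = 0.00190). The screened set gave 4 higher and 1 lower of 7. Of 13 ion channels and transporters 3 were higher, SLC20A2 (log2 fold change 1.65 ± 0.47 (SE), adjusted p = 0.0164) and CACNA1C (log2 fold change 1.49 ± 0.47 (SE), adjusted p = 0.0386) among them (median 0.83 (1.01 with genes at 0 UMIs in a group set to their bound)), and 2 of 10 in the screened set, where CACNA1C missed the threshold (adjusted p = 0.0838). Solute carriers of brain fibroblasts gave 2 of 6, SLC47A1 and SLC4A4 (median 1.71), both held mainly by 1 nucleus.

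Genes of mural cells were mostly not called here. Of 10 pericyte genes 1 was higher, TBX18, and 0 lower (median -0.55 (-0.27 with genes at 0 UMIs in a group set to their bound)). DLC1 stood at -0.17 ± 0.46 (adjusted p = 0.931), and RGS5 at -1.55 ± 0.63 (adjusted p = 0.158) on all nuclei and at -2.11 ± 0.54 (adjusted p = 0.00101) in the screened set, where it was called lower. Of 14 vasoactive genes 0 were called by edgeR (median 0.19 (0.83 with genes at 0 UMIs in a group set to their bound)), and 2 of 10 in the screened set, PDE5A and PRKG1. Of 10 contractile genes 2 were higher, the integrin ITGA8 on 17 fibroblast UMIs (log2 fold change 4.56 ± 1.03 (SE), adjusted p = 0.000766) and CACNB2 (log2 fold change 1.55 ± 0.50 (SE), adjusted p = 0.0446), with a median of 0.05 (0.43 with genes at 0 UMIs in a group set to their bound), and 4 of 8 in the screened set. ACTA2, among these, rested on 8 fibroblast UMIs, 7 of them in a single nucleus.

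Of 23 blood-brain barrier and endothelial genes 15 were lower and 0 higher (median -4.55 (-2.60 with genes at 0 UMIs in a group set to their bound)), and 16 of 16 in the screened set. SLC2A1, SLC7A5 (an amino acid transporter), EMCN and SLC38A5 had 0 UMIs in the fibroblast sums, at least 9.0-, 9.85-, 15.4- and 6.05-fold lower (adjusted p = 1.78e-06, 1.2e-06, 8.33e-09 and 0.000100). Over the 5 fibroblast sums of the screened set EMCN had 4 UMIs (log2 fold change -4.75 ± 0.62 (SE), adjusted p = 3.17e-12). The phosphatase INPP5D (at least 10.3-fold lower), PODXL (8.31), STXBP6 (9.16), TNFSF10 (6.92), ITGA6 (6.81) and ENTPD1 (8.16) were also at 0. The endothelial sums of all nuclei also held microglial markers, at 607 to 2001 CPM, against 78.8 to 415 CPM after the screen. The part of nuclei with these markers in the calls was not tested. JAM2 had 2 fibroblast UMIs (ratio 0.0844 (95% counting interval 0.0102 to 0.306)) and was the 1 lower call beside SLC20A2 in 7 small vessel disease genes (median -0.55).

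Among genes outside the lists, CYP1B1 had 13 fibroblast and 6 endothelial UMIs (log2 fold change 5.47 ± 1.26 (SE), adjusted p = 0.00109), WDR86 14 and 18 (log2 fold change 4.75 ± 1.01 (SE), adjusted p = 0.000291), BICC1 38 and 94 (log2 fold change 3.61 ± 0.58 (SE), adjusted p = 2.54e-07) and ROR2 17 and 59 (log2 fold change 3.73 ± 0.74 (SE), adjusted p = 6.41e-05). All 4 were called in the screened set as well. COL26A1 (log2 fold change 4.99 ± 1.29 (SE), adjusted p = 0.00549) was too, on 9 fibroblast UMIs. TNFRSF11B (osteoprotegerin) and NT5E (the ecto-enzyme CD73) were called on 7 and 5 fibroblast UMIs (adjusted p = 0.0123 and 0.0425) and were not tested in the screened set.

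All 72 gated nuclei, the 7 with equal sums included, were also set against endothelial nuclei, a comparison chosen after the data were seen that gives 5 libraries with at least 7 nuclei each. Of 8187 genes 401 were higher and 699 lower (4.90% and 8.54%, in all 13.4%). The screened set gave 352 higher and 682 lower of 7137 (4.93% and 9.56%, in all 14.5%), and 809 calls were shared in the same direction. Leaving out each library in turn gave 928 to 1015 calls.

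Between the animals, mural sums showed 0 genes (0%) of 2095 at an adjusted p under 0.05 by edgeR (18-month over 17-month, 3 against 2 libraries), with 71 at an unadjusted p under 0.05. DESeq2 also gave 0, with 14 unadjusted, and the screened set gave 0 of 995, with 57 unadjusted. Mural levels of the leading genes overlapped in part: GRM8 lay at 1914 to 2959 CPM in 18-month and 1286 and 2429 CPM in 17-month libraries, and PRKG1 at 3052 to 3452 CPM in 18-month and 3281 and 4055 CPM in 17-month libraries. DLC1 did not overlap, at 4139 to 5376 CPM in 18-month and 6479 and 6759 CPM in 17-month libraries, a difference that did not pass the test over all genes. On screened nuclei DLC1 overlapped too, with 6729, 9755 and 6159 CPM (18-month libraries) with 8395 and 9207 CPM (17-month libraries). Mural sums held 4 to 18 nuclei per library, and the size of difference that the test could find between the animals was not measured. Fibroblast sums were not compared between animals, because 3 of the 5 held 2 or 3 nuclei.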

How the data were processed

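Single-nucleus RNA of 5 libraries was analysed from the deposited matrices of raw UMI counts. Per the file headers the authors counted with Cell Ranger 5.0.1. Tools named in the submitters' processing notes are Cell Ranger, Seurat and CASAVA 1.8, and the genome builds named there are mm10 and Mmul_10. Whether intronic reads were counted is not given in the sources used here. Gene names came from the files for 16500 identifiers and from a table of symbols for 667, while 4501 kept the identifier and 93 shared a symbol with another. SLC6A13, TWIST1, PLN, CARMN, ADORA2A, LAMA5 and LAMA1 were not matched by symbol. Some list members are counted but not reported here by name.

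Nuclei were chosen by the gate given above, and the members and gene lists were chosen with earlier results of these data known. Counts were summed per library and side (at least 5 nuclei) and tested with edgeR 4.0.16 (TMM, robust quasi-likelihood fit, library as block) in R 4.3.3. Genes were kept by filterByExpr with a minimum count of 3 and a total of 15, the 15 gate genes were left out, and p-values were adjusted by Benjamini-Hochberg over all genes tested. Animals were compared without a block and without a fold threshold. CPM are UMIs divided by all UMIs of a sum, times 1e6. Replicate numbers name libraries of different animals and do not pair them. Where a group had 0 UMIs, the floor was 3 UMIs over the group, and ratios with few UMIs carry exact 95% intervals. Intervals and floors cover counting error only.

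Named genes are the 10 called genes with the highest and the 10 with the lowest fold change whose higher group had 50 CPM or more, with the same direction in each library that held both sums, and up to 4 called members per list with the largest fold change. For fibroblast sums of all nuclei the libraries with both sums were 18-month library 2 and 17-month library 1 alone. CACNA1C and SLC6A12 between the sides, genes with 0 calls, DLC1, KCNJ8, COL1A1 and the per-nucleus counts were chosen after their values were seen, as were the sums of at least 2 nuclei, alone or with the screen, the screened shares, the screened leave-out runs and the comparison of all gated nuclei. Alternatives were DESeq2 1.42.0, scaling to total UMIs, other gene filters, no library block, at least 10 nuclei per sum, a gate of 6 UMIs, totals up to 5000 UMIs and leaving out each library. On simulated counts the fit recovered 25% of 4-fold and 99% of 16-fold changes between mural and endothelial sums, with 3 false calls among 6817 genes, and 10% and 93% between fibroblast and endothelial sums, with 4 among 6376. The simulated sums came from a single pooled profile with a fixed dispersion of 0.2 and no differences between libraries. The rates of true and false calls in the real data may therefore differ. The mural against fibroblast comparison was not simulated. Figures and counts were made with matplotlib 3.10.9, pandas 2.3.3, scipy 1.17.1 and numpy 2.4.6 in Python 3.11.15, and limma 3.58.1 served edgeR.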

Additional observations from a re-analysis of the deposited data

Results flagged for a closer look

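The share of gated nuclei was farthest out in 17-month library 1 (0.443%, against 0.169% to 0.243% in the other 4 libraries), whose gap to the nearest library was 0.730 of the whole range, above Dixon's critical value of 0.71 for 5 samples. The gated share of gated plus endothelial nuclei was farthest out in 18-month library 2 (21.3%, with 10.8% and 11.1% in the other 18-month and 11.3% and 11.1% in the 17-month libraries), with a gap of 0.952 of the range. On screened nuclei the first gap was 0.830 and the second 0.579, below the critical value (22.6% in 18-month library 2, 11.5% and 15% in the other 18-month and 13.7% and 16.2% in the 17-month libraries). The gap of the endothelial share was 0.676 on all and 0.781 on screened nuclei, with 17-month library 1 farthest out. Chance flags about 1 in 20 groups at this level, and 5 shares were looked at in each set.

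The ratio of mural to endothelial nuclei in PCDH15, a protocadherin, differed between the animals by 5.35 on the log2 scale (18-month minus 17-month, edgeR interaction term, adjusted p = 0.0258), the 1 gene of 7621 at an adjusted p under 0.05, with 321 at an unadjusted p under 0.05. Mural sums had 395, 103 and 245 CPM (18-month, 8, 2 and 3 UMIs) with 41.5 and 0 CPM (17-month, 2 and 0 UMIs). Endothelial sums had 51.2, 61.1 and 13.3 CPM (18-month) with 259 and 211 CPM (17-month).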

How the results depend on the processing

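Calls between mural and fibroblast nuclei numbered 78, and 22 with DESeq2, 43 with no gene filter, 42 with no library block, 23 with totals up to 5000 UMIs, 25 with the screen alone and 124 with at least 2 nuclei per sum. With the screen alone, 17-month library 1 was the only library that held both sides. Leaving out each library gave 10 to 85, and 44 to 94 in the screened set (49 without 18-month library 1). Between mural and endothelial nuclei 741 calls became 440 with DESeq2, 469 with edgeR's default gene filter, 423 with at least 10 nuclei per sum and 384 with the screen alone, 431 to 714 when leaving out each library and 400 to 525 in the screened set (458 without 17-month library 2). Between fibroblast and endothelial nuclei 283 calls became 119 with DESeq2, 465 with at least 2 nuclei per sum and 451 in the screened set, 59 to 312 when leaving out each library and 319 to 426 in the screened set. The cause was not tested. By raw UMIs 8 mural nuclei passed the contractile limit, and 4 after thinning. A gate of 6 UMIs left a gated share of 0.130% (0.249% at 4 UMIs) and could not be fitted, since no residual degrees of freedom remained, and sums of at least 10 nuclei allowed the mural to endothelial comparison alone. Reversed fold changes (log2) were those of ADARB2 between the sides (0.26 with the screen alone), BNC2 between the sides (0.22 with totals up to 5000 UMIs), EDNRB between mural and endothelial nuclei (-4.87 with the screen alone), CACNB2 between fibroblast and endothelial nuclei (-0.092 without 17-month library 1, up to 2.20 leaving out another), SLC4A4 there (-0.28 with totals up to 5000 UMIs, -1.09 without 17-month library 1, up to 3.04 leaving out another), GLIS3 between the sides (-4.88 in the screened set, then -7.84, -5.03, -4.53, -4.47 and -4.24 leaving out each library) and ACTA2 between fibroblast and endothelial nuclei (2.14 in the screened set, then 2.18, 2.23, 2.29 and 3.89 leaving out each library but 17-month library 2). Between the animals a replicate block gave 0 calls with 42 at an unadjusted p under 0.05, and no run called any gene. The fibroblast side rests on 21 nuclei, so a gene not called there may differ below what this depth detects.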
